A study of Bos indicus and Bos taurus with 17 samples.

Results

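The 9 genes described here encode proteins of the tight junction: 5 claudins (CLDN1, CLDN3, CLDN4, CLDN7 and CLDN8), occludin (OCLN), the junctional adhesion molecule F11R, and the cytoplasmic scaffolds TJP1 and CGN. They were picked by name from a table of 61264 entries, of which 25121 carried a gene name. All 9 genes were found, each as 1 entry with 1 name. The RNA came from cells of the milk of Kashmiri and Jersey cows. They had been captured with magnetic beads carrying an antibody to cytokeratin 18, in order to isolate epithelial cells. Leukocyte markers were present in the values as well, as given below. Kashmiri is a local breed of Kashmir that has not been improved for milk production, and Jersey is a high-yielding dairy breed. Milk was taken on day 15 of lactation (D15), the early stage, on D90, the middle stage, and on D250, the late stage. The labels hold 17 samples, with 2 for Jersey on D90 and 3 for each of the other 5 groups, from cows in lactation 2 or 3. All samples of Kashmiri on D90 and of Jersey on D250 were from lactation 2, while the other groups held both. Lactation number is thus not balanced over the groups and cannot be told apart from them. The paper instead gives lactation 3 for its cows, 3 of each breed, with milk taken from them at all 3 stages. With values pooled by group, samples of the same cow could not be paired. The labels put each stage in a month of its own (March, July and December), so that stage and season cannot be told apart.

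Tight junctions seal the space between neighbouring epithelial cells. Claudins span the membrane and set how tight the seal is and which ions pass it, OCLN is a membrane protein of the same strands, and F11R is an adhesion molecule that helps to place the junction. TJP1 (also known as ZO-1) and CGN (cingulin) bind the membrane proteins from the inside and tie them to the actin cytoskeleton. In the mammary gland the junctions are leaky in pregnancy and close around the onset of lactation, which keeps lactose and sodium on their own sides of the epithelium.

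Each level is an FPKM value, a count of sequenced fragments corrected for transcript length and library size, and there was 1 such value for each gene and group, pooled over the libraries. No spread between cows, error or test could be computed from these values, and a single cow could carry a group value. The number of reads behind each value is not known here. Summed over all entries, FPKM differed between the groups. The sums were 1023150, 827916 and 533249 on D15, D90 and D250 in Kashmiri. In Jersey they were 763302, 645410 and 900667. Levels and ratios are given without rescaling unless stated. A gene entered a comparison if 1 or both groups reached 1 FPKM. It was called past the limit from an absolute log2 ratio of 2, after adding 1 FPKM (the pseudocount) to both values. Fold differences of single genes are plain ratios of the group values. The pseudocount makes the log2 ratio of a low gene smaller than its plain ratio. None of the 54 member values was listed at 0.

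The level of the 9 genes together was lowest on D90 in both breeds. Their summed FPKM in Kashmiri cows was 343 on D15, 74.0 on D90 and 210.5 on D250. In Jersey cows it was 284 on D15, 44.4 on D90 and 65.2 on D250. The sum was 4.64-fold lower on D90 than on D15 in Kashmiri and 6.40-fold lower in Jersey. At D250 it was 2.85-fold above D90 in Kashmiri and 1.47-fold above D90 in Jersey. In Kashmiri cows, 8 of the 9 genes had their lowest value on D90, and CLDN1 had it on D15. In Jersey cows, 6 of the 9 had it on D90 (CLDN3, CLDN7, CLDN8, OCLN, TJP1 and CGN). In bulk RNA, fewer cells of a type and less RNA per cell cannot be told apart.

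**Figure D1:**
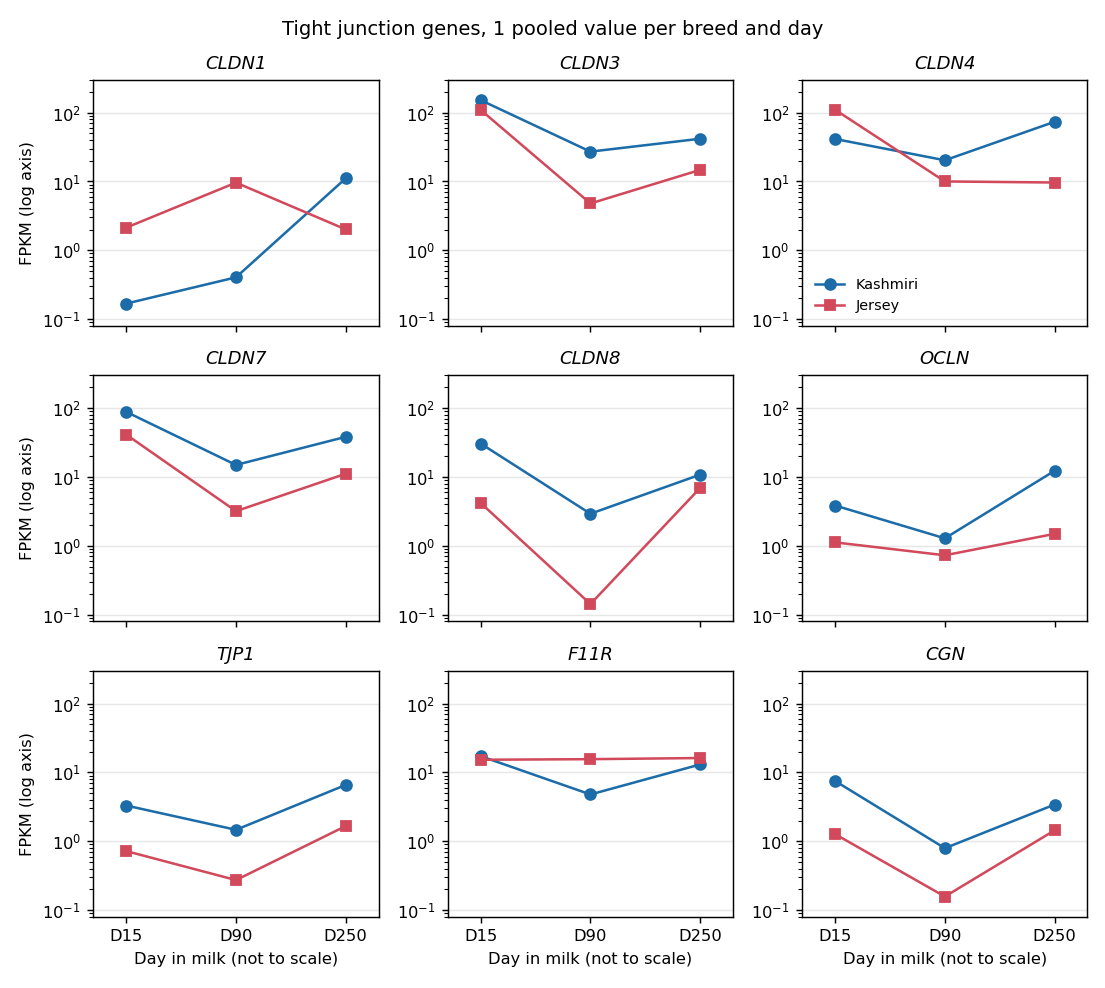
Level of each tight junction gene (FPKM, log axis) by day in milk, with circles for Kashmiri and squares for Jersey cows and 1 pooled value per point, so no error bars. CLDN3, CLDN7, CLDN8 and CGN dip on D90 in both breeds, CLDN1 peaks on D90 in Jersey (9.61 FPKM) and on D250 in Kashmiri (11.1 FPKM), and F11R in Jersey stays between 15.3 and 16.2 FPKM.

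CLDN3 and CLDN7 are sealing claudins found in many simple epithelia. The level of CLDN3 in Kashmiri cows was 151 FPKM on D15, 27.1 FPKM on D90 and 41.7 FPKM on D250. In Jersey cows it was 109.0 FPKM on D15, 4.79 FPKM on D90 and 14.7 FPKM on D250. CLDN3 was thus the highest of the 9 genes in Kashmiri on D15 and D90, and its value on D90 was 5.59-fold below D15 in Kashmiri and 22.8-fold below D15 in Jersey. CLDN7 had 87.9, 14.9 and 38.2 FPKM on D15, D90 and D250 for Kashmiri cows, and 41.1, 3.18 and 11.1 FPKM in Jersey cows. The 6 groups had the same order for CLDN3 and CLDN7, from Kashmiri D15 through Jersey D15, Kashmiri D250, Kashmiri D90 and Jersey D250 down to Jersey D90. Without a spread between cows, it cannot be said which neighbours in this order differ.

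CLDN8, a claudin known from the tight distal nephron and colon, had the widest range of the 9 genes, 214-fold between its highest and its lowest group. In Kashmiri cows its level was 30.4 FPKM on D15, 2.92 FPKM on D90 and 10.8 FPKM on D250. In Jersey cows it was 4.17 FPKM on D15, 0.142 FPKM on D90 and 6.91 FPKM on D250. The value in Jersey on D90 was thus 29.3-fold below D15, and the value on D250 was 48.5-fold above D90. The range and both of these ratios rest on 0.142 FPKM, a value under 1 FPKM from the group with 2 libraries. With the pseudocount, the 2 log2 ratios were -2.18 and 2.79. At D250 Jersey stood 1.66-fold above its own D15 value, while Kashmiri stood 2.82-fold below its own.

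CLDN4 is a claudin of tight epithelia that restricts the passage of sodium. Its level was 41.3 FPKM on D15, 20.3 FPKM on D90 and 73.5 FPKM on D250 in Kashmiri cows. In Jersey cows it was 109.6 FPKM on D15, 10.002 FPKM on D90 and 9.65 FPKM on D250. The highest Kashmiri value was therefore on D250, while the Jersey level on D250 was still close to that on D90 and 11.4-fold below D15. At D15 CLDN4 was 2.65-fold higher in Jersey, and on D250 it was 7.62-fold lower in Jersey. It was the highest of the 9 genes in Kashmiri on D250 and in Jersey on D15.

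CLDN1, a claudin needed for the barrier of the skin, followed another course. Its level in Kashmiri cows was 0.169 FPKM on D15, 0.405 FPKM on D90 and 11.1 FPKM on D250. In Jersey cows it was 2.14 FPKM on D15, 9.61 FPKM on D90 and 2.01 FPKM on D250. In Kashmiri cows the D250 value was 27.3-fold above D90 and 65.7-fold above D15. For both of these comparisons the paper lists CLDN1 among its differentially expressed genes with the highest fold changes. That call came from the authors' own test. In Jersey cows the D90 value was 4.496-fold above D15, and the D250 value was 4.77-fold below D90. CLDN1 was the only one of the 9 genes with its highest Jersey value on D90, the group where 6 of the others had their lowest value of all 6 groups.

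The makeup of the claudins differed between the groups. CLDN3 made up 48.7% of the summed FPKM of the 5 claudins in Kashmiri on D15, 41.3% on D90 and 23.8% on D250, while CLDN4 made up 13.3%, 30.9% and 41.9%. The ratio of CLDN4 to CLDN3 in Kashmiri cows was 0.273 on D15, 0.749 on D90 and 1.76 on D250. In Jersey cows this ratio was 1.01 on D15, 2.09 on D90 and 0.656 on D250. The 2 breeds thus differed in the day at which CLDN4 stood highest against CLDN3, D250 in Kashmiri and D90 in Jersey. CLDN1 made up 34.7% of the claudin sum in Jersey on D90 and between 0.0541% (Kashmiri, D15) and 6.32% (Kashmiri, D250) in the other groups. CLDN8 held its largest share in Jersey on D250, with 15.6%, and its smallest in Jersey on D90, with 0.514%. A ratio between genes of the same group does not depend on how the groups are scaled. The claudin sum itself was 311 FPKM in Kashmiri on D15 and 27.7 FPKM in Jersey on D90, the highest and the lowest of the 6 groups.

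**Figure D2:**
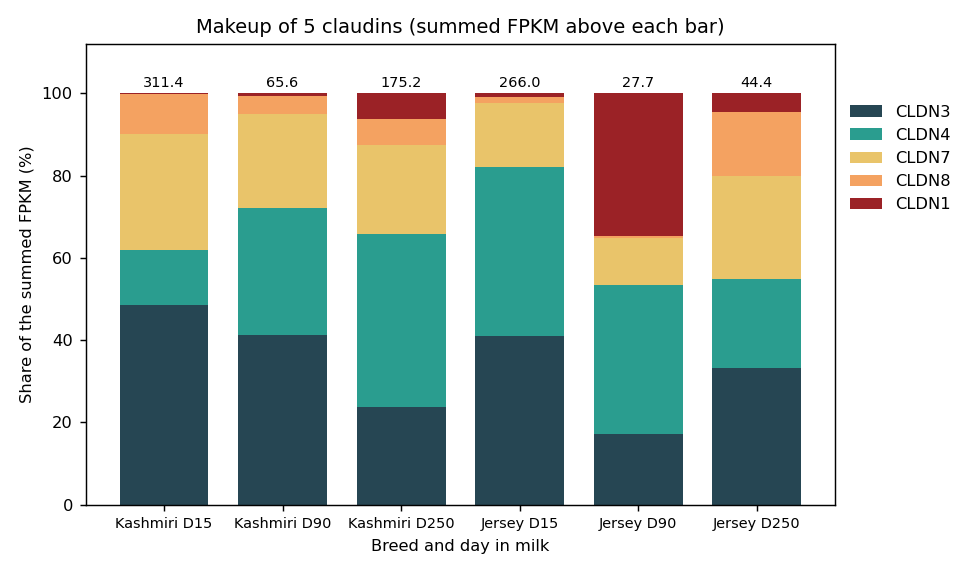
Share of the summed FPKM (%) held by each of 5 claudins in each group of breed and day, stacked to 100, with the summed FPKM printed above each bar. CLDN3 takes 48.7% in Kashmiri on D15 and 17.3% in Jersey on D90, where CLDN1 takes 34.7%.

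OCLN had 3.84 FPKM on D15, 1.28 FPKM on D90 and 12.3 FPKM on D250 in Kashmiri cows. In Jersey cows its level was 1.12 FPKM on D15, 0.728 FPKM on D90 and 1.49 FPKM on D250. The D250 value in Kashmiri was 9.57-fold above D90 and stood alone above the other 5 groups. Jersey was 8.24-fold lower than Kashmiri on D250, 3.43-fold lower on D15 and 1.76-fold lower on D90.

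The scaffolds were low throughout. TJP1 had 3.30, 1.47 and 6.57 FPKM on D15, D90 and D250 for Kashmiri cows, and 0.719, 0.273 and 1.66 FPKM in Jersey cows. Like OCLN, TJP1 was highest on D250 in both breeds and lowest on D90 in both. CGN had 7.48, 0.793 and 3.41 FPKM in Kashmiri cows, and 1.27, 0.157 and 1.44 FPKM in Jersey cows. CGN was 9.44-fold lower on D90 than on D15 in Kashmiri and 8.05-fold lower in Jersey. Both scaffolds were lower in Jersey on every day, by between 2.37-fold (CGN on D250) and 5.91-fold (CGN on D15).

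F11R (also known as JAM-A), which leukocytes and platelets carry as well as epithelia, varied least, with 3.60-fold between its highest and its lowest group. Its level in Kashmiri cows was 17.2 FPKM on D15, 4.78 FPKM on D90 and 13.0 FPKM on D250. In Jersey cows it was 15.3 FPKM on D15, 15.6 FPKM on D90 and 16.2 FPKM on D250. The Kashmiri value on D90 was thus 3.60-fold below D15, while the Jersey values lay within 1.06-fold of each other. With the claudins low, F11R was the highest of the 9 genes in Jersey on D90 and D250. The small differences of F11R had no fixed sign: between D15 and D250 in Kashmiri, between D250 and the other days in Jersey, and between the breeds on D15 and D250 their direction turned once the values were rescaled to the sum of all entries other than milk protein genes.

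Between D15 and D90 in Kashmiri cows, 8 of the 9 genes were considered and all 8 were lower on D90, also under both rescalings. Of these, 4 were past the limit (CLDN3, CLDN7, CLDN8 and CGN), and no gene was past it in the other direction. Rescaled to the sum without milk protein genes, CGN had -1.92 and 3 genes were past the limit. Over all named genes, 5.12% were past the limit as lower and 2.32% as higher. The median log2 ratio of the members was -1.95, and that of all named genes was -0.0048. Between D90 and D250, all 9 genes were higher on D250, with a median log2 ratio of 1.59 against 0.035 for all named genes. CLDN1 (log2 ratio 3.103) and OCLN (2.54) were past the limit as higher, as were 0.846% of all named genes, and 1.11% were past it as lower. Between D15 and D250, 4 genes were higher and 5 lower, with a median of -0.37, which turned to 0.53, with 5 higher and 4 lower, under the rescaling to the sum without milk protein genes. CLDN1 was past the limit as higher (log2 ratio 3.37), beside 1.85% of all named genes as higher and 2.17% as lower.

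In Jersey cows between D15 and D90, 8 genes were considered, and CLDN3, CLDN4, CLDN7 and CLDN8 were past the limit as lower, with log2 ratios of -4.25, -3.33, -3.33 and -2.18. Of all named genes, 3.80% were past the limit as lower and 2.96% as higher. The median was -1.57 for the members and -0.07 for all named genes. All 4 genes past the limit were claudins, whereas CGN had a log2 ratio of -0.97, which rests on values near the pseudocount, and CLDN1 had 1.76. With a pseudocount of 0.1 FPKM, 6 genes were past the limit, CGN (-2.41) as lower and CLDN1 (2.12) as higher among them. Between D90 and D250, 7 genes were higher on D250, with a median of 1.06 against 0.15. CLDN8 was past the limit as higher (log2 ratio 2.79), with 3.61% of all named genes as higher and 0.442% as lower. Between D15 and D250, CLDN3 (-2.81) and CLDN4 (-3.38) were past the limit as lower, while 3.42% of all named genes were past it as lower and 9.05% as higher. The median of the members in that comparison was 0.08, and it turned to -0.14 and -0.023 under the 2 rescalings.

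Jersey cows had the lower value for 7 of the 9 genes on D15, for 7 on D90 and for 8 on D250. On D90 the 7 include CGN, which was under 1 FPKM in both Jersey (0.157) and Kashmiri (0.793). Without CGN, 8 genes were considered on that day and 6 were lower, and the D90 median is over these 8. At D15, the exceptions were CLDN1 and CLDN4, and CLDN8 was past the limit as lower in Jersey (log2 ratio -2.60). Over all named genes, 2.06% were past the limit as lower and 6.48% as higher. At D90, the exceptions were CLDN1, past the limit as higher with a log2 ratio of 2.92, and F11R, with 1.52. CLDN3 (-2.28) was past the limit as lower, and CLDN7 lay just inside it with -1.93. Rescaled to the sum without milk protein genes, CLDN3 had -1.97, and no member was past the limit as lower, while by the upper quartile CLDN7 was past it as well, with -2.06. Of all named genes, 5.16% were past the limit as lower and 6.55% as higher on D90. At D250, CLDN4 (-2.81), OCLN (-2.41) and CLDN1 (-2.003, at the limit itself) were past it as lower. Only 1.37% of all named genes were past the limit as lower on that day, and 10.8% as higher. F11R was the exception on D250, with a log2 ratio of 0.29, and it too was lower in Jersey under both rescalings. The median log2 ratio of the members, Jersey over Kashmiri, was -1.08 on D15, -0.95 on D90 and -1.51 on D250, against -0.13, -0.035 and -0.11 for all named genes.

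**Figure D3:**
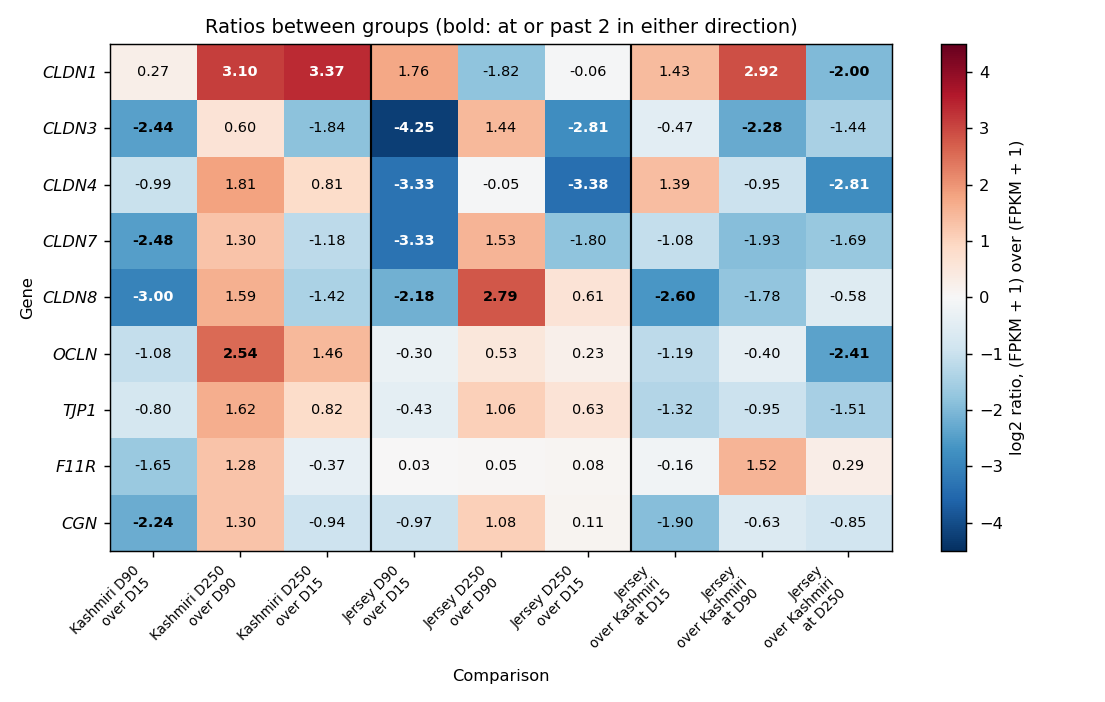
The log2 ratio of each gene (with a pseudocount of 1 FPKM) in 9 comparisons, in 3 blocks: the stages in Kashmiri, the stages in Jersey, and Jersey over Kashmiri. Blue is lower and red higher, and bold marks ratios of at least 2 in either direction, from -4.25 for CLDN3 in Jersey between D15 and D90 to 3.37 for CLDN1 in Kashmiri between D15 and D250.

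The summed level of epithelial markers was lowest on D90 in both breeds, as was that of the 9 genes. The 2 sums did not move by like amounts: between D90 and D250 in Jersey, that of the 9 genes rose only 1.47-fold. All 14 epithelial markers were found, and their summed FPKM was 6627, 807 and 2822 on D15, D90 and D250 in Kashmiri cows and 2749, 113 and 1584 in Jersey cows. Much of this sum lay in KRT19 and ELF5, with 835 and 349 FPKM in Jersey on D250. Between D90 and D250 in Jersey, KRT19 rose 21.9-fold, while KRT8 rose 2.27-fold, KRT18 2.83-fold and CDH1 2.27-fold. The median log2 ratio in that step was 2.05 for the 12 markers considered and 1.06 for the 9 genes. KRT18, the target of the capture antibody, had 51.3, 9.13 and 11.5 FPKM in Kashmiri and 33.7, 1.59 and 4.51 FPKM in Jersey. KRT8, in an entry shared with KRT4, had 55.5, 26.2 and 39.5 FPKM in Kashmiri, and 134.5, 6.07 and 13.8 FPKM in Jersey. CDH1, the adhesion molecule of the adherens junction, lay between 5.05 and 31.2 FPKM, in Kashmiri on D90 and on D250. No epithelial marker was listed at 0 in any group.

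Markers of leukocytes were present in the same libraries. The pan-leukocyte gene PTPRC had 68.7, 166 and 87.9 FPKM on D15, D90 and D250 for Kashmiri cows and 60.0, 119.6 and 320.2 FPKM in Jersey cows. The summed FPKM of the 4 pan-leukocyte markers was 325, 765 and 394 in Kashmiri and 902, 1249 and 1910 in Jersey. Of 12 neutrophil markers 8 were found, with sums from 177 (Kashmiri, D15) to 14726 (Jersey, D250). The 9 macrophage markers summed to between 129 (Kashmiri, D15) and 2179 (Jersey, D90), the 9 T and NK cell markers to between 163 (Jersey, D250) and 1482 (Kashmiri, D90), and the 5 B cell markers to between 6.65 (Jersey, D250) and 67.0 (Kashmiri, D90). The 5 endothelial markers summed to at most 23.4, of which PECAM1, which leukocytes also carry, made up 17.3 in Jersey on D250. The 3 red blood cell markers found summed to under 1 FPKM in every group. The part of the cell mix in the levels of the tight junction genes was not tested.

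Set against the epithelial markers, the median of the 9 genes was no longer lower on D90 than on D15. The geometric mean of the 14 markers, a yardstick chosen after the values were seen, was lower on D90 than on D15, with a log2 ratio of -2.26 for Kashmiri and -3.48 for Jersey. Divided by it, the median log2 ratio of the 9 genes, without a pseudocount, went from -1.85 to 0.42 in Kashmiri and from -3.01 to 0.47 in Jersey. Relative to the markers, 5 of the 9 genes were then higher and 4 lower on D90 in Kashmiri, and 6 were higher and 3 lower in Jersey. These medians and counts take in all 9 genes, without the minimum of 1 FPKM. CLDN1 in Kashmiri (0.169 and 0.405 FPKM) and TJP1 in Jersey (0.719 and 0.273 FPKM) were under it on both days, and both counted as higher. With the mean of KRT8 and KRT18 in place of the 14 markers, 4 were higher and 5 lower in Kashmiri, and 7 were higher and 2 lower in Jersey. Against the keratins Kashmiri had a median of -0.25 and Jersey one of 1.45, so that in Kashmiri its sign between D15 and D90 depended on the yardstick. Between D90 and D250 in Jersey, the median was -1.07 against the 14 markers and 0.36 against the 2 keratins, so its direction depended on the yardstick as well.

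Single genes stood apart on this scale. The ratio of CLDN7 to the 14 markers lay between 0.686 (Jersey, D250) and 1.47 (Jersey, D15), the narrowest range of the 9 genes on this scale, whereas against the 2 keratins CLDN3 had the narrowest, from 1.25 to 2.84. CLDN3 had a ratio of 2.48, 2.14 and 1.08 on D15, D90 and D250 in Kashmiri and of 3.90, 1.91 and 0.909 in Jersey, so that it was lowest against the 14 markers on D250 in both breeds. Against the 2 keratins this order did not hold, with 2.84, 1.53 and 1.63 in Kashmiri and 1.30, 1.25 and 1.61 in Jersey, lowest on D90 in both. CLDN8 and CGN were lower on D90 than on D15 in Kashmiri also on this scale, with log2 differences of -1.12 and -0.97. In Jersey CLDN8 (-1.40) and CLDN3 (-1.03) were lower on D90 on this scale, while CGN was higher (0.47). OCLN had a ratio of 0.0630, 0.101 and 0.318 in Kashmiri and of 0.0401, 0.290 and 0.0920 in Jersey. CLDN1 had a ratio of 0.00276, 0.0319 and 0.287 in Kashmiri and of 0.0766, 3.83 and 0.124 in Jersey. F11R had a ratio of 6.20 in Jersey on D90 and of at most 0.998 in the other 5 groups. CLDN4 had a ratio of 3.99 in Jersey on D90, above that of CLDN1, but also of 3.93 in Jersey on D15.

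**Figure D4:**
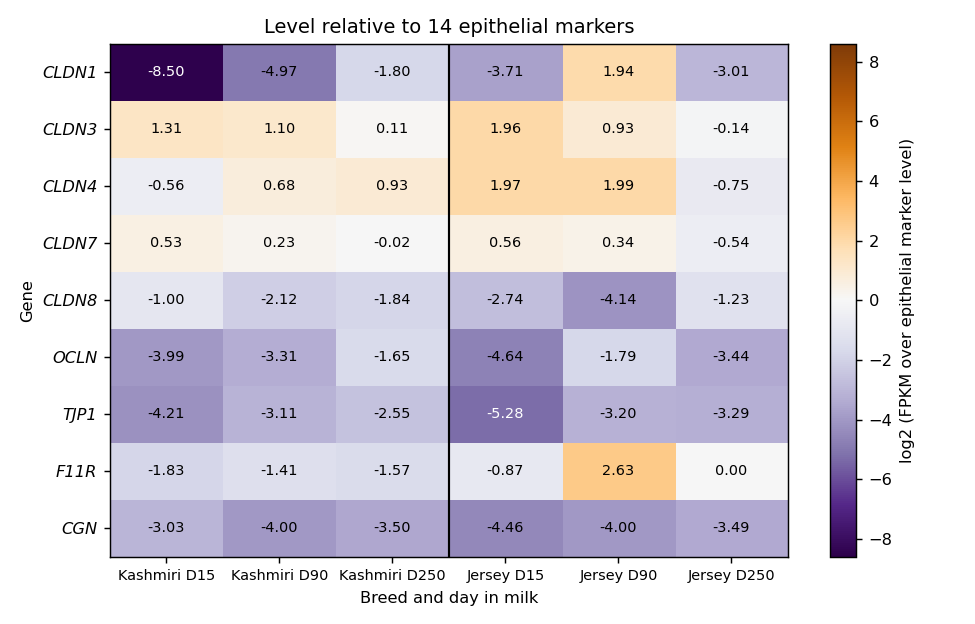
Level of each gene divided by the geometric mean of 14 epithelial markers in the same group, as log2, for each breed and day. Values near 0 match the marker level, CLDN7 stays between -0.54 and 0.56, and CLDN1 runs from -8.50 in Kashmiri on D15 to 1.94 in Jersey on D90.

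Other genes of the tight junction were looked up from a list of 38, of which 33 were found and 21 had at least 1 FPKM in a group. The list was lower on D90 than on D15, with 16 genes below 0 and 3 above in Kashmiri (median log2 ratio -1.04), and 9 below and 5 above in Jersey (median -0.66). Between D90 and D250, 18 were above 0 and 2 below in Kashmiri (median 0.97), and 11 above and 3 below in Jersey (median 0.66). Jersey was lower for 17 of 19 genes on D15 and for 18 of 20 on D250, with medians of -1.01 and -0.86. On D90 the split was nearer to even, with 7 of 12 genes lower in Jersey and a median of -0.29.

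The 8 genes of this list with the highest mean were YBX3, TJP3, JAM3, SYMPK, PARD3, IGSF5, CGNL1 and LSR. TJP3, a scaffold of the same family as TJP1, had 47.2, 8.42 and 23.4 FPKM on D15, D90 and D250 in Kashmiri and 14.04, 1.26 and 7.33 FPKM in Jersey. It was higher than TJP1 in every group and past the limit as lower on D90 in both breeds, with log2 ratios of -2.36 and -2.73. CGNL1 (paracingulin), the relative of CGN, had 11.2, 0.780 and 6.08 FPKM in Kashmiri and 1.38, 0.3001 and 1.71 FPKM in Jersey. The adhesion molecule IGSF5 ran from 18.3 FPKM in Kashmiri on D15 to 0.224 FPKM in Jersey on D90, and the tricellular junction protein LSR from 1.71 FPKM (Jersey, D250) to 5.26 FPKM (Kashmiri, D15). YBX3, an RNA-binding protein that TJP1 binds, was the highest, between 22.3 FPKM (Jersey, D90) and 129 FPKM (Kashmiri, D15). SYMPK, which also acts in the processing of RNA ends, lay between 10.7 and 17.8 FPKM in all groups.

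JAM3 in both breeds and PARD3 in Jersey were among the genes that differed from this course. JAM2 in Jersey did so too, with 0.222, 3.52 and 0.554 FPKM on D15, D90 and D250. JAM3, an adhesion molecule related to F11R, had 3.20, 20.1 and 8.10 FPKM in Kashmiri and 26.1, 27.1 and 8.03 FPKM in Jersey. It was past the limit as higher on D90 than on D15 in Kashmiri (log2 ratio 2.33) and as higher in Jersey on D15 (2.69). PARD3, which sets cell polarity, had 12.8, 1.73 and 6.58 FPKM in Kashmiri and 3.86, 5.48 and 27.4 FPKM in Jersey. It was past the limit as lower on D90 than on D15 in Kashmiri (-2.34), and as higher in Jersey on D250 than on D90 (2.13) and on D15 (2.55). PATJ (-2.12) and MAGI1 (-2.16), both scaffolds, and IGSF5 (-2.69) and CGNL1 (-2.77) were also past the limit as lower on D90 in Kashmiri. Between the breeds, IGSF5 (-2.49) and CGNL1 (-2.36) on D15 and TJP3 (-2.06) on D90 were past the limit as lower in Jersey. Of the claudins outside the 9, CLDN6 reached 3.31 FPKM (Jersey, D15) and CLDN23 reached 3.09 FPKM (Kashmiri, D250), and the other 11 found stayed under 1 FPKM in all groups.

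**Figure D5:**
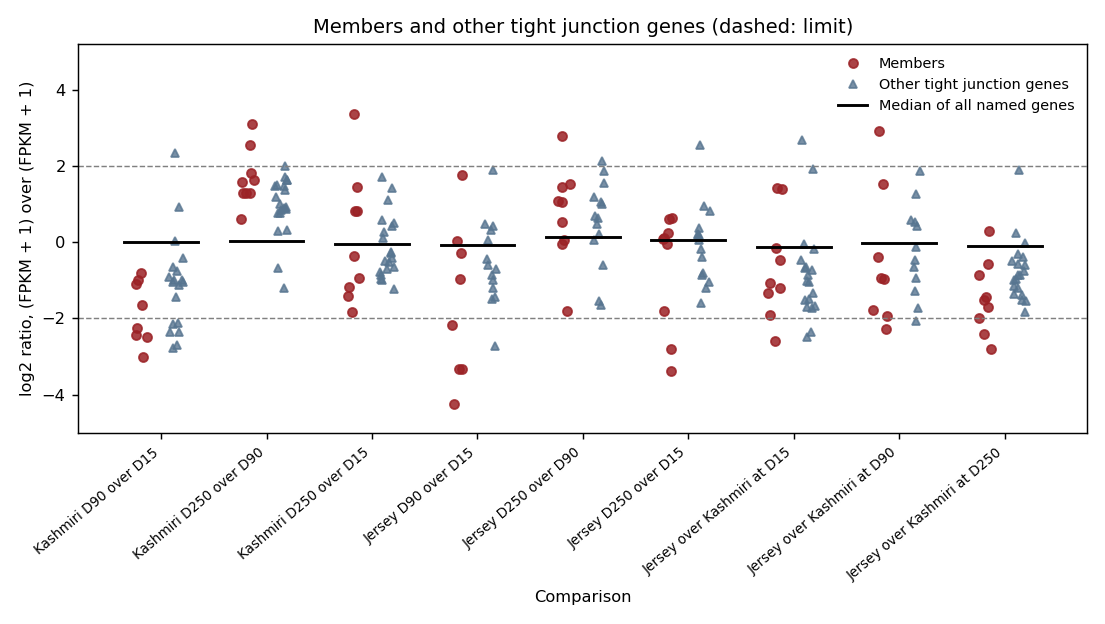
The log2 ratio (with a pseudocount of 1 FPKM) of the 9 genes (circles) and of the other tight junction genes (triangles) with at least 1 FPKM in either group, for each of 9 comparisons, with the median of all named genes as a black line and the limit of 2 dashed. Both sets lie mostly below the line between D15 and D90 in Kashmiri (medians -1.95 and -1.04) and above it between D90 and D250 in Kashmiri (medians 1.59 and 0.97).

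Genes of the adherens junction and the desmosome, the other contacts of these cells, had a like course in Kashmiri cows. Of 14 such genes 13 were found, and 10 were lower on D90 than on D15 among 12 considered (median log2 ratio -1.74). Between D90 and D250, 12 were higher and 1 lower (median 1.59), and CDH1, CTNND1, DSP and JUP were past the limit as higher. In Jersey the medians were -0.84 and 1.05, with JUP and PKP3 past the limit as lower on D90. NECTIN2, in an entry shared with an Ensembl identifier, was the one gene of this list past the limit as higher in Jersey, with 176 FPKM against 11.1 FPKM in Kashmiri on D90.

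The 9 genes did not form 1 pattern over the 6 groups. On the log2(FPKM + 1) scale, the Pearson r was 0.97 between CLDN3 and CLDN7, 0.97 between CLDN8 and CGN, and 0.96 between OCLN and TJP1, while CLDN1 and F11R had an r of -0.26 and 0.23 with the mean of the other 8. These values describe 6 pooled groups that share scaling and cell mix, and no p is given. The r with the mean of the 14 epithelial markers was 0.97 for CLDN7, 0.94 for CLDN8, 0.91 for CLDN3, 0.90 for CGN, 0.73 for TJP1, 0.72 for CLDN4, 0.65 for OCLN, 0.17 for F11R and -0.41 for CLDN1. With the mean of the 4 pan-leukocyte markers, r was -0.83 for CGN, -0.79 for CLDN7, -0.77 for OCLN, -0.73 for TJP1 and -0.69 for CLDN8. It was -0.69 for CLDN3, -0.64 for CLDN4, -0.10 for F11R and 0.10 for CLDN1. Among 8537 other genes with at least 1 FPKM in all 6 groups, those most like the mean of the 9 genes included NME4 (r = 0.99), HPS5, SSH3, JUP, BCKDHA, ENSBTAG00000005458, VPS45, COQ9 and NAPRT (r = 0.97). JUP (plakoglobin) is itself a gene of cell contacts and was also on the list of adherens junction and desmosome genes.

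The table gives no positions, and the reference gene table used here was of another assembly, so that only neighbours were read from it. There CLDN3 and CLDN4 lay next to each other among the coding genes, CLDN1 lay next to CLDN16, and OCLN next to MARVELD2. CLDN16 stayed under 1 FPKM in all groups. MARVELD2 (tricellulin), which joins the corners of 3 cells, had 1.69, 0.364 and 2.82 FPKM in Kashmiri and 0.315, 0.238 and 0.480 FPKM in Jersey, highest on D250 and lowest on D90 in both breeds, as OCLN was.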

How the data were processed

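The 9 genes and the gene lists were chosen with earlier results of these data known. Reads were trimmed by the authors (Trimmomatic) and aligned to UMD3.1, a bovine genome assembly, using TopHat with Bowtie, before quantification by Cufflinks and Cuffdiff. The deposited values are FPKM, 1 per gene and group. The authors' columns name the breeds Local and Jersey, and Local was taken as Kashmiri. Joined names were split for lookup, and of several entries under 1 name, that with the highest mean was kept. Joined entries counted once among all named genes. Since FPKM is pooled by group, differences are ratios, without a test. The limit was an absolute log2 ratio of 2 with a pseudocount of 1 FPKM.

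Genes named in the text were the 9 members, the 8 other tight junction genes with the highest mean and any past the limit, further claudins from 1 FPKM, 5 marker genes with the sums of the marker lists, and the 10 genes most like the members. Of these, 1 marker gene, which is also among the 10, is not reported here. KRT4, KRT19, ELF5, JAM2 and PECAM1 and the genes named for adherens junctions, desmosomes and neighbours were added after their values were seen. The alternatives were a pseudocount of 0.1 FPKM, a minimum of 0.01 FPKM, a limit of 1, 2 rescalings (by the upper quartile, and to the sum without milk protein genes), repeated names summed, and joined entries left out. The code was tested on simulated data with large changes in genes well above the pseudocount, so that low values were not covered. Software was pandas 2.3.3 and numpy 2.4.6 under Python 3.11.15, with figures from matplotlib 3.10.9. Protein and promoter sequences were not analysed here.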

Additional observations from a re-analysis of the deposited data

Results flagged for a closer look

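In 3 cases a gene moved in opposite directions in the 2 breeds over the same interval, by at least 0.5 on the log2 scale with a pseudocount of 1 FPKM in each. The difference between the breeds was not tested, since each breed has 1 pooled value per day. CLDN1 between D90 and D250 stood at 3.103 for Kashmiri and at -1.82 for Jersey on this scale. CLDN4 between D15 and D250 stood at 0.81 for Kashmiri and at -3.38 for Jersey. CLDN8 between D15 and D250 stood at -1.42 for Kashmiri and at 0.61 for Jersey.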

How the results depend on the processing

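No library could be left out, because libraries are pooled in the FPKM, and the reads behind a value are unknown. Of 405 ratios of single members under 5 alternatives, 39 moved by at least 0.58 and 9 changed sign, 8 of F11R and 1 of CGN, the largest from -0.37. The moved ratios were 21 of 81 with FPKM rescaled to the sum without milk protein genes and 18 of 81 with a pseudocount of 0.1 FPKM. With FPKM rescaled to the sum without milk protein genes, the members' median log2 ratio between D15 and D250 reversed to 0.53 in Kashmiri and to -0.14 in Jersey, and to -0.023 in Jersey by the upper quartile. The sum rescaling moved the median of all named genes between D15 and D250 in Kashmiri from -0.042 to 0.77, and in Jersey over Kashmiri at D250 from -0.11 to -0.76, where the members moved to -2.20 and 6 were past the limit. It gave 5 members past the limit between D90 and D250 and 2 between D15 and D250 in Kashmiri, 2 between D90 and D250 in Jersey, 1 between breeds at D90, and 3 between D15 and D90 in Kashmiri, where CGN was lost. With a pseudocount of 0.1 FPKM, the median between D15 and D90 in Jersey was -2.92, that between breeds at D90 was -1.54, and 4 members were past the limit in Jersey between D90 and D250, 4 between breeds at D15 and 5 at D90, and 6 in Jersey between D15 and D90. With a minimum of 0.01 FPKM, the median between D15 and D90 in Jersey was -0.97. With a limit of 1, the members past it numbered 8 and 5 in Kashmiri (D90 to D250 and D15 to D250), 6 in Jersey between D90 and D250, and 7, 5 and 6 between breeds at D15, D90 and D250. The share of all named genes past the limit was not computed under any alternative, so these counts have no share to be read against. Between D90 and D250 in Kashmiri, the sum rescaling also moved the median of all named genes, from 0.035 to 0.59. Repeated names summed and joined entries left out could change no member's ratio, since each member had 1 entry with 1 name. These 2 of the 5 alternatives thus say nothing about how stable the members are.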
